A study of Mus musculus with 48 samples.

Results

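The response of the obese mouse lung to sidestream cigarette smoke was measured by comparing the 8 arrays labelled DIO-SS, from mice made obese by diet and then given sidestream smoke, with the 8 labelled DIO-SC, from mice made obese in the same way that breathed filtered air, out of 48 arrays in the series. All mice were male C57BL/6. Both obese groups had been fed the high-fat D12492 diet, with 60% of energy as fat, from 6 weeks of age, for 9 weeks before exposures began at 15 weeks of age. Exposure was nose-only for 5 hours a day, 8 times over 2 weeks, and the lungs were taken 1 day after the last exposure. The air group was a sham control handled in the same exposure scheme. For reference, 3 further groups of 8 were used: regular weight mice on a standard diet with 5% of energy as fat, in air or in sidestream smoke, and obese mice in mainstream smoke. The obese and regular weight mice thus ate different diet products, and what is called obese below is the labelled combination of body weight and diet. The hour of necropsy was not given in the sources used here. Each array gave log2 signals of whole lung RNA for 12393 genes, 1 probe set per gene symbol, and each array stands for 1 mouse, labelled as a biological replicate.

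Sidestream smoke is the smoke that leaves the burning end of a cigarette between puffs, whereas mainstream smoke is drawn through the cigarette. Polycyclic aromatic hydrocarbons in smoke bind the aryl hydrocarbon receptor, which enters the nucleus and switches on Cyp1a1 and Cyp1b1, enzymes that oxidise these compounds. Reactive compounds are sensed by NRF2, which drives antioxidant genes, and misfolded proteins by HSF1, which drives chaperone genes of the heat shock family. Lung cells also carry a circadian clock, in which BMAL1 and CLOCK bind E-boxes to drive Nr1d1, Dbp and the Per genes, and glucocorticoid hormones drive a further set of genes that includes Fkbp5 and Zbtb16.

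The arrays were compared with lung markers and with each other first. Sftpc, the surfactant protein of alveolar type 2 cells, had log2 signals of 15.03 to 15.09 in sidestream smoke and 14.97 to 15.10 in air. Scgb1a1, the secretory protein of club cells, had 15.08 to 15.24 and 15.12 to 15.24, so both defining lung markers were high on all 16 arrays. A pair of the air arrays stood apart. The mean correlation with the other 47 arrays was 0.965 for air replicate 3 (DIO-SC-3) and 0.962 for air replicate 7 (DIO-SC-7), against at least 0.987 for the other 6 air arrays and 0.991 to 0.992 for the 8 sidestream arrays. Air replicate 3 carried transcripts of skeletal muscle and squamous epithelium: the mean log2 signal of 14 skeletal muscle markers was 11.15, against 5.87 to 6.68 on the air arrays other than replicates 3 and 7, and that of 12 squamous markers was 11.02 against 5.22 to 5.84. Air replicate 7 carried thymocyte transcripts, with a mean of 10.95 over 11 markers against 6.03 to 6.42. Both carried fat transcripts. The mean of 8 brown fat markers was 9.03 on replicate 3 and 10.72 on replicate 7, against 6.31 to 7.33 on the other 6, and the mean of 12 white fat markers was 9.68 and 11.36, against 6.89 to 8.54. None of the 8 sidestream arrays went above 6.41 for skeletal muscle, 5.54 for squamous epithelium, 6.42 for thymocytes or 7.26 for brown fat. The spread within groups differed accordingly: the median standard deviation of a gene was 0.194 log2 units in obese air, 0.136 without replicates 3 and 7, and 0.105 in obese sidestream smoke. Many results below are therefore also given without these 2 arrays. Values given only once may still change without them. The difference between 3′ and 5′ probe sets of Actb, a measure of RNA integrity, was 0.43 ± 0.07 (SD, n = 8) in sidestream smoke and 0.40 ± 0.06 (SD, n = 8) in air.

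**Figure D1:**
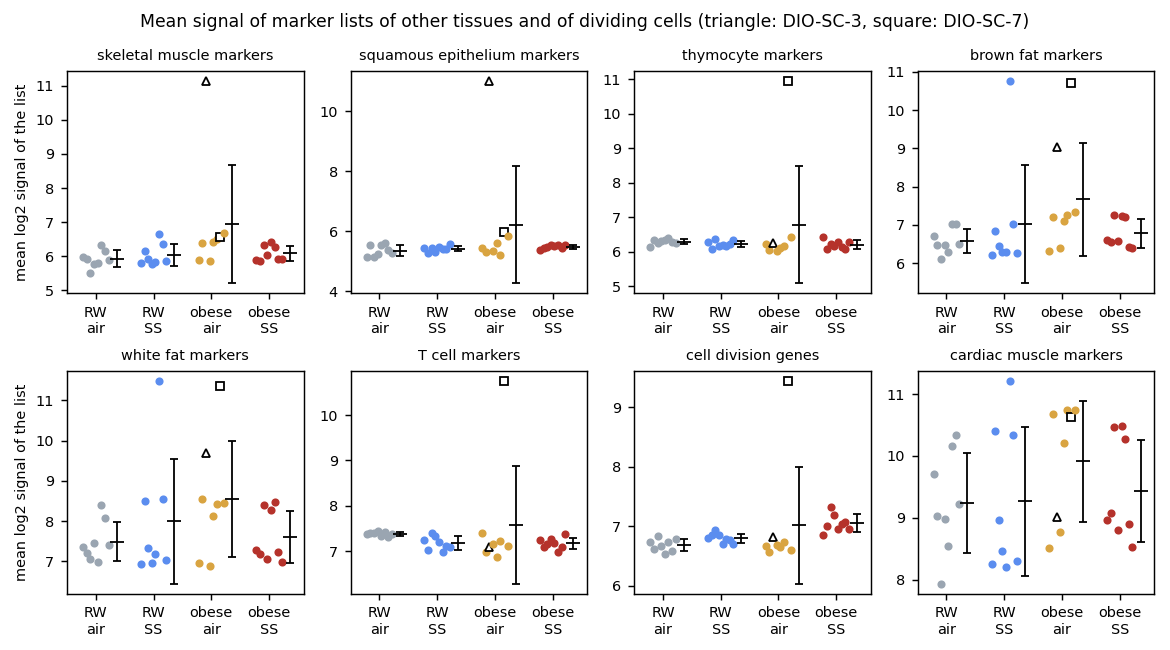
Mean log2 signal of 8 marker lists on each array (points) with the group mean and SD (black bars) in regular weight (RW) and obese mice in air or sidestream smoke (SS), 8 arrays a group. The triangle is DIO-SC-3, at 11.15 for skeletal muscle and 11.02 for squamous epithelium, and the square is DIO-SC-7, at 10.95 for thymocyte markers and 9.44 for cell division genes.

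Sidestream smoke changed 849 of 12393 genes in the obese lung at an adjusted p below 0.05 (6.85%), of which 528 were higher (4.26%) and 321 lower (2.59%). Most changes were small. The median absolute log2 difference of the called genes was 0.29, 57 genes changed by at least 1.5-fold (27 higher and 30 lower), and 20 by at least 2-fold (6 higher and 14 lower). The median difference over all genes was 0.02. For 176 genes (1.42%) all 8 sidestream arrays lay beyond all 8 air arrays, 121 on the higher side (0.976%) and 55 on the lower side (0.444%). RNA was taken from whole lung, so fewer cells of a type and less RNA per cell cannot be told apart in any of these values.

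Leaving out DIO-SC-3 and DIO-SC-7 left the number of calls similar and changed their balance. Without them 807 genes were called (6.51%), 392 higher (3.16%) and 415 lower (3.35%), so that 48.6% of calls were higher in place of 62.2%. Of the 849 genes, 504 were called again, all in the same direction, 345 were no longer called and 303 others were. Of the 57 genes with at least 1.5-fold change, 49 were still called. The 8 that were not are Dgat2, Rgs5, Rbfox1, Itih5, Ccl11, Bdh1 and Xirp1, which were lower in sidestream smoke, and Wif1, which was higher. Leaving out replicate 3 alone gave 457 higher and 337 lower genes, and leaving out replicate 7 alone gave 494 and 380. The number of calls did depend on the pair in a fit of the 16 compared arrays alone. There 380 genes were called with the pair and 1219 without it (638 higher and 581 lower). The fit without the pair was chosen after the data were seen.

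**Figure D2:**
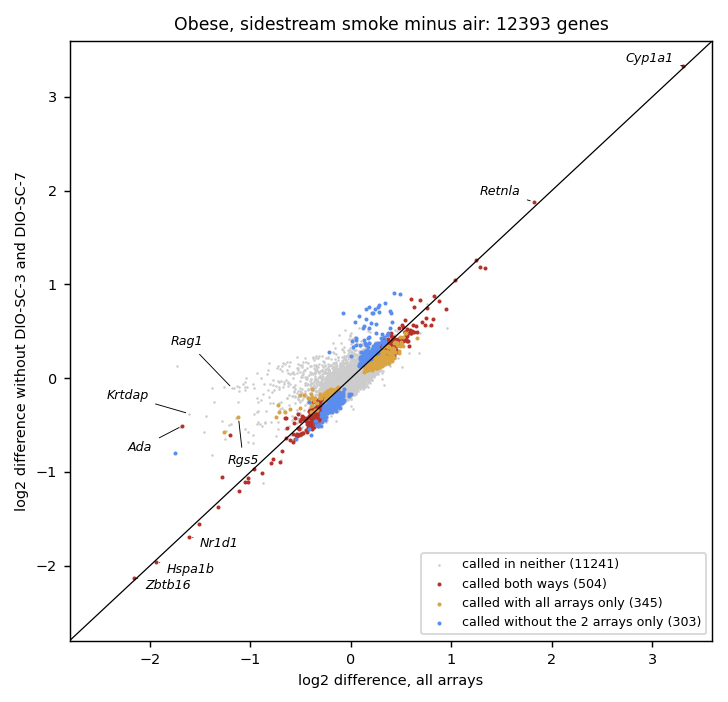
Log2 difference of each of 12393 genes between obese sidestream smoke and obese air with all arrays (x axis) and without DIO-SC-3 and DIO-SC-7 (y axis), with the line of equality. Cyp1a1, Retnla, Nr1d1, Hspa1b and Zbtb16 lie on the line, whereas Ada, Rgs5, Krtdap and Rag1 lie to the left of it, with smaller differences once the 2 arrays are left out.

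The largest change was in Cyp1a1, the hydrocarbon-oxidising enzyme that is the classical target of the aryl hydrocarbon receptor. Its promoter and that of Cyp1b1, the other member that moved, are printed because both were induced and both hold the receptor's core motif. The sequences are the 250 bases before the RefSeq start (GRCm38.p6), 5′ to 3′ on the gene's strand, with the receptor's core motif GCGTG (or CACGC, its complement) in capitals, 54 bases before the start in Cyp1a1 and 76 in Cyp1b1.
Cyp1a1 promoter, chr9:57697363-57697612, plus strand: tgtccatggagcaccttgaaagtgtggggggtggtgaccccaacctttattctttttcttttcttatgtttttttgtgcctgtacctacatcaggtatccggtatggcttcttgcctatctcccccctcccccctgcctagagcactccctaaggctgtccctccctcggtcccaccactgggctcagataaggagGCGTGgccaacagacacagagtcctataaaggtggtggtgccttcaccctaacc
Cyp1b1 promoter, chr17:79715062-79715311, minus strand: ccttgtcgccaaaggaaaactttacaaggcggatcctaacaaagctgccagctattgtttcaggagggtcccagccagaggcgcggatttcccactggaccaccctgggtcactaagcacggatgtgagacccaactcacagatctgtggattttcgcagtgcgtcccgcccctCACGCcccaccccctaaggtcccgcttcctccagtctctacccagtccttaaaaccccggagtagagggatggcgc
GCGTG on either strand was present in 28.2% of all 32851 RefSeq windows and in 4 of the 6 windows found for 7 receptor targets, those of Cyp1a1, Cyp1b1, Ahrr and Tiparp, so the motif is common and its presence is a description of the sequence only.

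Log2 signals of Cyp1a1 were 7.51 to 8.78 (median 7.93) in obese sidestream smoke and 4.09 to 5.10 (median 4.73) in obese air. All sidestream arrays were above all air arrays. The difference was 3.31 ± 0.21 (SE), a 9.91-fold increase (adjusted p = 9.4e-16), and 3.33 without DIO-SC-3 and DIO-SC-7. In regular weight mice Cyp1a1 was already at 9.16 to 10.32 (median 9.50) in air and at 8.59 to 10.14 (median 8.98) in sidestream smoke, groups that overlapped, with a difference of -0.53 (adjusted p = 0.19). The response in obese mice thus exceeded that in regular weight mice by 3.84 ± 0.30 (adjusted p = 1.4e-12), and the obese air group was below the regular weight air group by 4.84 on the log2 scale (difference -4.84, adjusted p = 2.1e-22). The obese air arrays enter both of these last comparisons as well as the response itself. Sidestream smoke left obese Cyp1a1 (median 7.93) below every regular weight air array.

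Cyp1b1, an enzyme of the same family with wider tissue expression, had log2 signals of 7.77 to 8.16 (median 8.00) in obese sidestream smoke and 6.88 to 8.41 (median 7.24) in obese air. The 8.41 belonged to DIO-SC-7 and the other 7 air arrays were at or below 7.44, under every sidestream array. The increase was 0.63 ± 0.14 (1.55-fold, adjusted p = 0.0038) and 0.76 without the 2 arrays. Regular weight mice had a similar difference of 0.59 (adjusted p = 0.016), and the 2 responses differed by 0.04 ± 0.20 (adjusted p = 0.96), which does not show that they are equal. The other 5 measured receptor targets did not pass the test: Ahrr, the receptor's repressor, and Tiparp each had a difference of 0.04, Cyp1a2 of -0.12, Nqo1 of -0.10 and Aldh3a1 of 0.17. The median of the 7 was 0.04, beside 0.02 for all genes.

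**Figure D3:**
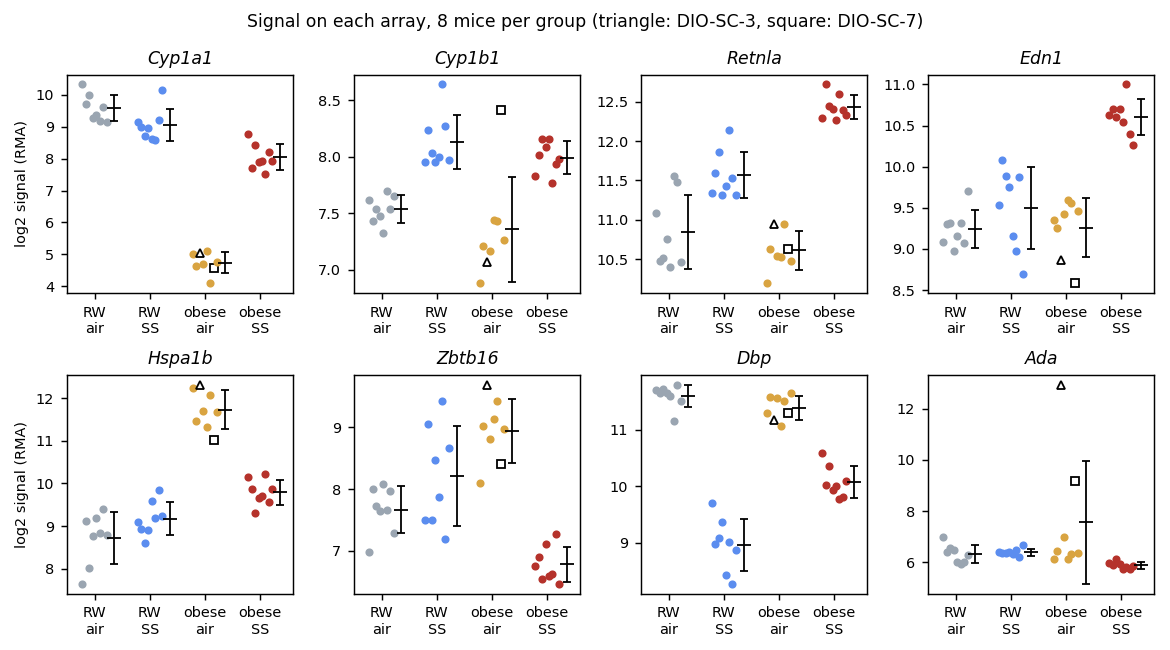
Log2 signal of 8 genes on each array (points) with the group mean and SD (black bars) for regular weight (RW) and obese mice in air or sidestream smoke (SS), 8 mice a group. Obese sidestream arrays are separate from obese air arrays for Cyp1a1, Retnla, Edn1, Hspa1b, Zbtb16, Dbp and Ada, and DIO-SC-7 (square) lies above them for Cyp1b1.

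Of 20 NRF2 targets and antioxidant enzymes, 0 rose and 1 fell by limma's test, beside 6.85% of all genes called: Osgin1, an oxidative stress-induced growth inhibitor, with a difference of -0.25 (adjusted p = 0.032). That call was lost when any of 9 single arrays was left out (adjusted p of 0.050 to 0.084) and held without DIO-SC-3 and DIO-SC-7 (-0.36, adjusted p = 3.6e-04). Hmox1, haem oxygenase, differed by -0.17 (adjusted p = 0.42), and Gclc, the rate-limiting enzyme of glutathione synthesis, by 0.16 (adjusted p = 0.46). The members ranged from -0.29 to 0.29, with a median of -0.01. Among 20 glutathione transferases, Gstt3 was the clearest, at 9.27 to 9.60 in sidestream smoke and 8.34 to 9.09 in air. Its arrays did not overlap, and it rose by 0.56 ± 0.07 (adjusted p = 2.3e-07) and by 0.45 without the 2 arrays. Gsto1 rose by 0.49 and Gstm7 and Gstm6 fell by 0.39 and 0.30 with all arrays. Gstm7 had 2 probe sets, and the one not used here had the opposite sign (0.18). Without DIO-SC-3 and DIO-SC-7 the adjusted p was 0.053 for Gsto1 and 0.070 for Gstm7. Leaving out single arrays ended the calls too, with DIO-SS-6 for Gsto1 (adjusted p = 0.051), DIO-SS-8 for Gstm7 (adjusted p = 0.058) and any of 13 arrays for Gstm6 (adjusted p of 0.054 to 0.10). None of 13 other pulmonary xenobiotic enzymes, such as Cyp2f2 of club cells (-0.02), was called, and their median was 0.02.

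Heat shock genes fell together. Of 21 measured members, 18 fell (2.59% of all genes did) and 0 rose, the median difference was -0.43, and the 3 that did not pass, Dnajb4, Cryab and Hspa4, had differences of -0.04, -0.08 and -0.15. The same count of 18 was reached without DIO-SC-3 and DIO-SC-7, with a median of -0.44, and between 17 and 18 members were called when any single array was left out. Hspa1a and Hspa1b encode the stress-inducible HSP70 chaperone and are near-identical neighbours, so that probe sets of one may also bind transcripts of the other and the pair counts as uncertain in which copy changed. Their promoters are shown because they agree at 247 of 250 bases (98.8%), including the heat shock element core in capitals, which lies 104 bases before both starts.
Hspa1a promoter, chr17:34972157-34972406, minus strand: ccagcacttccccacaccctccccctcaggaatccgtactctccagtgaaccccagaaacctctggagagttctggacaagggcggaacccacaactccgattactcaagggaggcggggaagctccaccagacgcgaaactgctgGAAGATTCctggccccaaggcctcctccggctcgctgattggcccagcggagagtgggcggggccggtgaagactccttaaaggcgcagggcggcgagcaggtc
Hspa1b promoter, chr17:34959239-34959488, minus strand: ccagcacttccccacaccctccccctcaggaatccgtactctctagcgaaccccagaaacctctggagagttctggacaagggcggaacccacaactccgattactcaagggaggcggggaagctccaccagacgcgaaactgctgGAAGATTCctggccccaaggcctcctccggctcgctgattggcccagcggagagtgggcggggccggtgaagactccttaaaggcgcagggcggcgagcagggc
GAANNTTC, the core searched on both strands, was in 7 of 24 windows of 18 heat shock genes (29.2%) and in 6.69% of all RefSeq windows; the other 5 genes that hold it are Dnaja1, Fkbp4, Hspb1, Hspd1 and Hspe1.

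Hspa1b was at 9.30 to 10.22 (median 9.78) in obese sidestream smoke and at 11.02 to 12.31 (median 11.69) in obese air. The groups did not overlap, and the fall was -1.94 ± 0.24 (3.83-fold, adjusted p = 2.5e-07) with all arrays and -1.96 without the 2. Hspa1a was at 7.93 to 8.93 and at 8.90 to 10.82, where DIO-SS-6 (8.93) reached above the lowest air array. It fell by 1.51 ± 0.20 on the log2 scale (adjusted p = 1.0e-06). Among the partners of HSP70, the exchange factor Hsph1 fell by 1.11 ± 0.12, the J-protein Dnaja1 by 0.78 ± 0.09, and both sets of arrays were apart. The mitochondrial chaperonins Hspd1 and Hspe1 fell by 0.57 and 0.41, and the HSP90 cochaperones Chordc1, Stip1 and Fkbp4 by 0.58, 0.53 and 0.43. Hspa8, the constitutive HSP70, fell by 0.26 and Hsp90aa1, an HSP90, by 0.31.

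These genes fell from a level above that of regular weight mice. The mean log2 signal of the 21 genes was 11.23 ± 0.11 (SD, n = 8) in obese air, 10.68 ± 0.08 in obese sidestream smoke, 10.44 ± 0.06 in regular weight air and 10.40 ± 0.11 in regular weight sidestream smoke. All 8 obese air arrays, at 11.08 to 11.36, were above all obese sidestream arrays, at 10.60 to 10.85, and these were above the highest regular weight air array, at 10.52. Compared with regular weight air, 19 of 21 members were higher in obese air (8.28% of all genes differed and 2.29% were higher) with a median difference of 0.54, a comparison that shares the obese air arrays. In regular weight mice sidestream smoke lowered 1 member and raised 0 (1.48% of all genes fell), with a median of -0.07. The response in obese mice minus that in regular weight mice passed the test for 7 members, all negative (0.258% of all genes were). Among them were Hspa1b (-2.39 ± 0.34, adjusted p = 2.4e-05), Hspa1a (-1.85), Dnaja1 (-0.77) and Hsph1 (-0.75). Cirbp, an RNA-binding protein whose mRNA is induced by mild cold, moved the other way: it was at 7.85 to 8.10 in obese sidestream smoke and 7.06 to 7.88 in obese air, with 6 of 8 sidestream arrays above all air arrays, and rose by 0.54 ± 0.12 (adjusted p = 0.0033). It was 1.16 lower on the log2 scale in obese air than in regular weight air (difference -1.16, adjusted p = 2.4e-09).

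**Figure D4:**
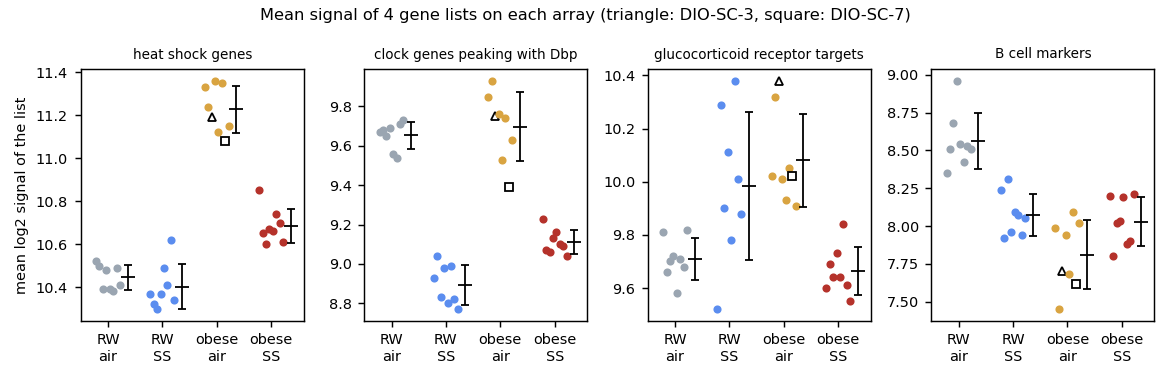
Mean log2 signal of the heat shock, Dbp-phase clock, glucocorticoid and B cell lists on each array (points) with the group mean and SD (black bars), 8 arrays a group. Heat shock genes average 11.23 in obese air and 10.68 in obese sidestream smoke against 10.44 in regular weight air, and the clock list averages 9.70 and 9.11 in obese and 9.65 and 8.90 in regular weight mice in air and sidestream smoke.

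Clock genes that peak with Dbp also fell. Of 12 measured, 9 fell (2.59% of all genes did) and 0 rose, with a median of -0.47 and the same number without DIO-SC-3 and DIO-SC-7. Nr1d1, the REV-ERB alpha repressor, was at 8.21 to 8.94 (median 8.73) in sidestream smoke and 9.98 to 10.50 (median 10.34) in air, without overlap. It fell by 1.61 ± 0.12 on the log2 scale (3.06-fold, adjusted p = 6.5e-14). Dbp, a transcription factor of the clock's output, was at 9.77 to 10.59 (median 10.02) and 11.07 to 11.65 (median 11.40), and fell by 1.32 ± 0.16 (adjusted p = 2.1e-07). Per1, a period protein that glucocorticoids also induce, fell by 1.02 ± 0.20, and Nr1d2, Hlf, Usp2, Per2, Tef and Cry2 by between 0.23 and 0.55. Per3 (-0.14), Tsc22d3 (-0.33) and Bhlhe41 (-0.02) did not pass. Arntl, which encodes BMAL1 and peaks when Dbp is low, was at 7.19 to 7.87 in sidestream smoke and at 6.39 to 7.04 in air apart from DIO-SC-7 at 8.29. It rose by 0.60 ± 0.15 (adjusted p = 0.010) with all arrays and by 0.84 (adjusted p = 4.5e-06) without the 2. Clock, its partner, rose by 0.31 (adjusted p = 0.023), a call that was lost without DIO-SC-2, DIO-SC-4 or DIO-SC-7 (adjusted p of 0.051 to 0.067) and held without DIO-SC-3 and DIO-SC-7 together (adjusted p = 0.022). The other 3 Bmal1-phase genes, Nfil3, Npas2 and Cry1, differed by 0.16 to 0.22 without passing.

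Per1 is shown as a clock gene whose window holds the E-box CACGTG, here in capitals 166 bases before the start.
Per1 promoter, chr11:69098699-69098948, plus strand: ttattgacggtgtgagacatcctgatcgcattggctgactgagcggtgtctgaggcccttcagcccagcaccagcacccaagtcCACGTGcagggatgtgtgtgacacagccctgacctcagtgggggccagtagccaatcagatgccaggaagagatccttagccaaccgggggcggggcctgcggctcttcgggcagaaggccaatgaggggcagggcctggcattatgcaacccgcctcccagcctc
CACGTG was in 4 of 15 windows of 11 Dbp-phase genes (26.7%), in Per1, Tef and Bhlhe41, and in 6.02% of all windows. Of these 3, Per1 and Tef fell and Bhlhe41 did not pass.

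In regular weight mice 6 of the 12 fell (1.48% of all genes did) and 1 rose, Tsc22d3 (0.56), with a median of -0.54. Per1 differed there by -0.44, which did not pass (adjusted p = 0.26). The differences there were -2.62 for Dbp and -2.61 for Nr1d1 (adjusted p = 6.2e-17 and 6.8e-22). The fall in obese mice was smaller by 1.31 ± 0.23 for Dbp (adjusted p = 7.1e-04), by 1.0 ± 0.17 for Nr1d1 (adjusted p = 4.2e-04) and by 0.59 ± 0.12 for Nr1d2 (adjusted p = 0.0044), and these differences were called without the 2 arrays too. In the air groups the diets were close: Dbp was 0.20 lower in obese than in regular weight air on the log2 scale (difference -0.20, adjusted p = 0.49), and Nr1d1 differed by 0.08 (adjusted p = 0.74).

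Several glucocorticoid receptor targets fell strongly. Of 18 measured, 5 fell and 1 rose (2.59% and 4.26% of all genes did), with a median of -0.22, and the counts were the same without DIO-SC-3 and DIO-SC-7. Zbtb16, a zinc finger repressor, was at 6.47 to 7.27 (median 6.69) in sidestream smoke and 8.10 to 9.69 (median 9.0) in air. Its arrays did not overlap, and the fall of -2.16 ± 0.27 (4.48-fold, adjusted p = 2.3e-07) was the largest of any gene. It was read by a probe set of the kind that can bind more than 1 transcript; without such probe sets the fall was -1.12 (adjusted p = 1.5e-07). Fkbp5, a cochaperone of the receptor, was at 8.46 to 8.75 in sidestream smoke and 9.40 to 11.05 in air, with DIO-SC-7 and DIO-SC-3 the highest at 11.05 and 10.10. It fell by 1.28 ± 0.15 (adjusted p = 5.0e-08) and by 1.05 without them. Klf15, a metabolic transcription factor, fell by 1.02 ± 0.14 (adjusted p = 6.0e-06), and Klf9 by 0.34. Per1, counted in both lists, was the other that fell. Sgk1, a serum- and glucocorticoid-regulated kinase, rose by 0.38 ± 0.09 (adjusted p = 0.0031). Pdk4 (-1.21) and Tsc22d3 (-0.33) did not pass, at adjusted p of 0.062 and 0.13.

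The regular weight arrays showed the opposite sign for some of these genes. Zbtb16 was at 7.20 to 9.42 there in sidestream smoke and 6.99 to 8.08 in air, with a difference of 0.54 that did not pass (adjusted p = 0.31). The 2 diets differed in the response of Zbtb16 by -2.70 ± 0.38 (adjusted p = 2.2e-05), of Fkbp5 by -1.49 ± 0.21 (adjusted p = 2.2e-05) and of Klf15 by -1.07 ± 0.20 (adjusted p = 0.0033). In air, Zbtb16 was 1.27 and Fkbp5 0.99 higher in obese than in regular weight mice (adjusted p = 0.0014 and 7.3e-06), again with the same obese air arrays. Map3k6, a stress-activated kinase, followed the same pattern of values, with a fall of 1.05 ± 0.15 in obese mice, a difference of -0.01 in regular weight mice and 0.70 more in obese than in regular weight air.

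Genes of the unfolded protein response fell in smaller steps. Of 24 members, 5 fell (2.59% of all genes did) and 0 rose with all arrays (median -0.13). Without DIO-SC-3 and DIO-SC-7, 9 fell (3.35% of all genes did), with a median of -0.20. Herpud1, of the endoplasmic reticulum degradation machinery, fell by 0.40 ± 0.08 and by 0.50 without the 2 arrays. On DIO-SC-7 it was at 11.74, below all sidestream arrays, whereas the other 7 air arrays, at 12.24 to 12.59, were above them. Manf, a secreted protein of that compartment, fell by 0.37 ± 0.08. Ddit3, which encodes CHOP, Atf4 and the chaperone Hspa5 fell by 0.28, 0.21 and 0.24. Ddit3 lost its call without DIO-SC-4 or DIO-SS-2 (adjusted p = 0.057 and 0.053) and Hspa5 without any of 9 single arrays (adjusted p of 0.050 to 0.075), while both were called without DIO-SC-3 and DIO-SC-7. The number called depended on single arrays: it was 2 without DIO-SC-4 or without DIO-SS-2 and 9 without DIO-SC-7.

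**Figure D5:**
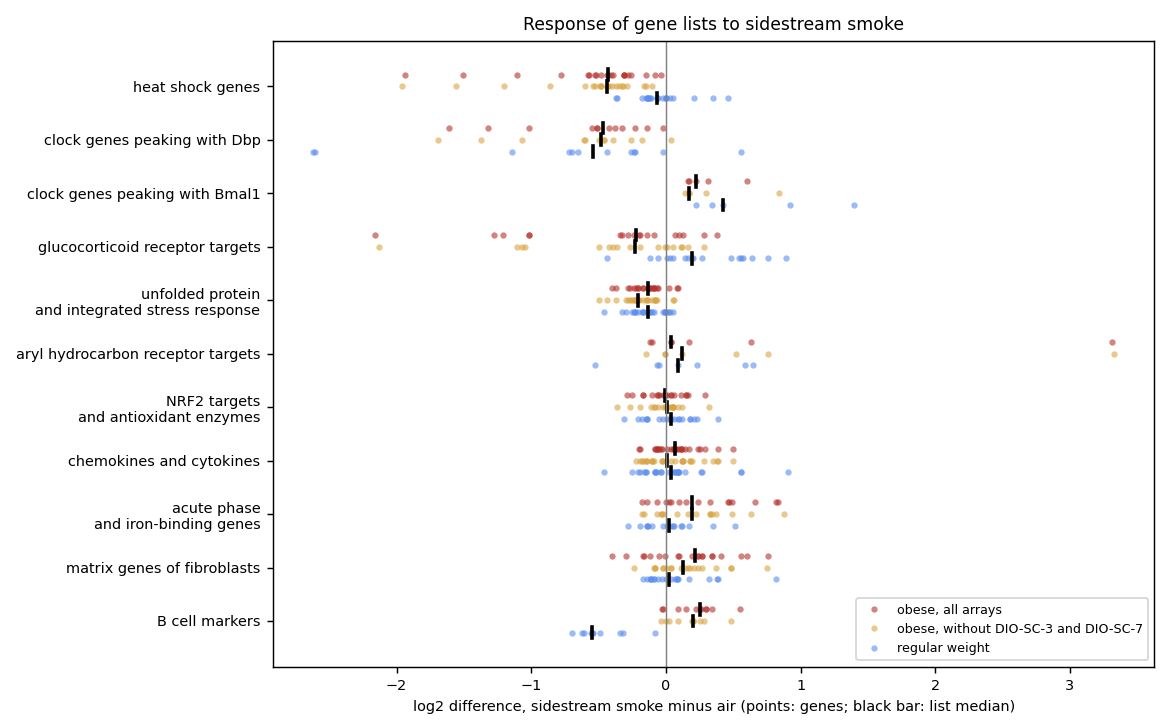
Log2 difference between sidestream smoke and air for each gene (points) of 11 lists, with the list median (black bar), in obese mice with all arrays, in obese mice without DIO-SC-3 and DIO-SC-7, and in regular weight mice. Heat shock genes have medians of -0.43 and -0.44 in obese mice and -0.07 in regular weight mice, clock genes peaking with Dbp have medians of -0.47 in obese and -0.54 in regular weight mice, and B cell markers have medians of 0.25 in obese and -0.55 in regular weight mice.

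The largest rise after Cyp1a1 was that of Retnla. Retnla, a secreted protein of type 2 responses made by airway epithelium and macrophages, was at 12.27 to 12.72 (median 12.40) in sidestream smoke and 10.19 to 10.94 (median 10.58) in air. The groups were apart, with a rise of 1.82 ± 0.18 (3.53-fold, adjusted p = 2.3e-09). Regular weight mice had a rise of 0.72 (adjusted p = 0.022), and the diets differed by 1.10 ± 0.26 (adjusted p = 0.024). Slc26a4, the anion exchanger pendrin, was at 6.75 to 7.31 and 5.18 to 6.35, and rose by 1.29 ± 0.20 (adjusted p = 1.7e-05). Other genes of the 20 on the type 2 list moved little, and the list median was -0.02. The eosinophil chemokine Ccl11 fell by 0.72 with all arrays (adjusted p = 0.025), with DIO-SC-7 at 8.10 and DIO-SC-3 at 7.24 as the highest air arrays; without both the difference was -0.36 (adjusted p = 0.21), and the call was also lost without either of them or without DIO-SS-1, DIO-SS-2 or DIO-SS-8 (adjusted p of 0.051 to 0.076).

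Chemokines outside that list gave a mixed picture. Ccl8, a monocyte attractant, was at 8.20 to 8.85 in sidestream smoke and 7.04 to 8.08 in air, and rose by 1.04 ± 0.21 (adjusted p = 0.0011). Cxcl17, a mucosal chemokine, was at 11.22 to 11.89 and 9.93 to 11.02, and rose by 0.95 ± 0.14 (adjusted p = 1.1e-05) and by 0.74 without DIO-SC-3 and DIO-SC-7, its lowest arrays. Sidestream arrays were above all air arrays for both genes. Of 28 chemokines and cytokines of the inflammatory list, 0 rose and 0 fell by limma's test (4.26% and 2.59% of all genes did), with a median of 0.06. Cxcl1, a neutrophil attractant, was at 5.21 to 5.99 in sidestream smoke and 4.87 to 5.74 in air (difference 0.29 ± 0.24, adjusted p = 0.48), and Ccl2 at 5.34 to 5.89 and 5.48 to 5.87 (difference -0.03 ± 0.28, adjusted p = 0.97).

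Of 16 acute phase and iron-binding genes, 4 rose (4.26% of all genes did) and 0 fell, with a median of 0.20. Without DIO-SC-3 and DIO-SC-7, 3 rose (3.16% of all genes did). Cp, the copper oxidase ceruloplasmin, was at 11.73 to 12.23 in sidestream smoke and 10.57 to 11.56 in air, without overlap, and rose by 0.82 ± 0.12 (adjusted p = 8.8e-06) and by 0.63 without the 2 arrays. Lcn2, which binds bacterial iron carriers, was at 10.97 to 11.24 and 9.63 to 10.91, the lowest being DIO-SC-7, and rose by 0.66 ± 0.12 (adjusted p = 4.7e-04) and by 0.49 without the 2. Saa3, an acute phase apolipoprotein, was at 7.72 to 8.68 on 7 sidestream arrays and at 10.24 on DIO-SS-7, against 7.16 to 8.18 in air. Its rise of 0.83 ± 0.25 (adjusted p = 0.036) was lost when any of 6 single arrays was left out: DIO-SS-7 (0.58, adjusted p = 0.11), DIO-SS-3, DIO-SS-6, DIO-SC-2, DIO-SC-3 or DIO-SC-5 (adjusted p of 0.050 to 0.076). Cd14, the endotoxin coreceptor, rose by 0.49, and by 0.34 without the 2 arrays (adjusted p = 0.12).

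Of 14 vasoactive genes, 2 rose and 1 fell (4.26% and 2.59% of all genes did). Edn1, which encodes the vasoconstrictor endothelin 1, was at 10.26 or above on all sidestream arrays (median 10.62) and at 8.58 to 9.59 (median 9.38) in air, where DIO-SC-7 and DIO-SC-3 were the lowest at 8.58 and 8.86. The groups did not overlap, and the rise was 1.34 ± 0.16 (2.54-fold, adjusted p = 9.2e-08) and 1.17 without the 2. Regular weight mice had a difference of 0.25 (adjusted p = 0.45), and the diets differed by 1.09 ± 0.22 (adjusted p = 0.0063). Ptgs2, the inducible cyclooxygenase, rose by 0.88 ± 0.16 (adjusted p = 3.5e-04). Nos3, the endothelial nitric oxide synthase, fell by 0.40 ± 0.08 (adjusted p = 0.0014). The other 11 of the 14 vasoactive genes, such as the converting enzymes Ece1 (-0.12) and Ace (0.09), did not pass.

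Of 20 matrix genes of fibroblasts, 6 rose (4.26% of all genes did) and 0 fell, with a median of 0.21. Elastic fibre genes led: Eln, which encodes tropoelastin, was at 9.62 to 10.63 in sidestream smoke and 8.90 to 9.77 in air, with 6 of 8 sidestream arrays above all air arrays, and rose by 0.76 ± 0.16 (adjusted p = 0.0015). The crosslinking enzymes Loxl1 and Lox rose by 0.60 ± 0.10 and 0.56 ± 0.13, both with no overlap between the groups. Sparc, Pdgfra and Mmp2 rose by 0.24, 0.34 and 0.27. Without DIO-SC-3 and DIO-SC-7, 4 rose and 1, Timp3, fell (3.16% and 3.35% of all genes did). Eln, Loxl1 and Lox then rose by 0.75, 0.48 and 0.48. Pdgfra (0.21) and Mmp2 (0.24) did not pass, at adjusted p of 0.053 and 0.096. The call of Mmp2 was also lost without any of 7 single arrays (adjusted p of 0.052 to 0.076). Fibrillar collagens did not pass, with Col1a1 at 0.27 and Col3a1 at 0.41 (adjusted p = 0.34 and 0.051). Aspn, asporin, a matrix proteoglycan outside the list, was at 9.55 to 10.36 and 8.01 to 9.46, and rose by 1.25 ± 0.17 (adjusted p = 1.7e-06). Among 13 smooth muscle markers, Smtn and Synpo2 fell by 0.41 and 0.39 (2.59% of all genes fell) and 0 rose, with a median of -0.17. The call of Synpo2 was lost without the 2 arrays (adjusted p = 0.11) and without DIO-SC-3, DIO-SC-6, DIO-SS-1, DIO-SS-2 or DIO-SS-7 alone (adjusted p of 0.053 to 0.089).

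Several enzymes were also among the genes that changed. The carboxylesterase Ces1g rose by 0.74 ± 0.17 and its paralogue Ces1f fell by 0.97 ± 0.19, each with no overlap between groups (8 of 8 arrays). The only probe set of Ces1f is of the kind that can bind more than 1 transcript. Akr1c14, a steroid dehydrogenase, rose by 0.71 ± 0.16 and Acot1, an acyl-CoA thioesterase, by 0.59 ± 0.14. Plscr2, a phospholipid scramblase, and Tc2n rose by 0.75 ± 0.18 and 0.80 ± 0.18. Without DIO-SC-3 and DIO-SC-7 the rises were smaller but still called. They were 0.57 for Ces1g, 0.60 for Akr1c14, 0.51 for Acot1, 0.64 for Plscr2 and 0.57 for Tc2n. Acot1 was the 1 of 21 fatty acid oxidation genes called (6.85% of all genes were). The list median of -0.24 with all arrays was -0.01 without DIO-SC-3 and DIO-SC-7, the arrays with fat transcripts.

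Markers of lung cell types moved little, and several of their calls rested on the 2 air arrays. Beside the counts below, 4.26% of all genes rose and 2.59% fell with all arrays. Of 16 alveolar type 2 markers, Muc1, Abca3 and Sftpd rose by 0.40, 0.30 and 0.22 (median 0.16), and 0 were called by limma without DIO-SC-3 and DIO-SC-7 (median 0.02). The mean of this list was 12.22 and 11.94 on those arrays and 12.35 to 12.57 on the other 6 air arrays. Abca3, the lipid transporter of surfactant, went to 0.19 without DIO-SC-7 (adjusted p = 0.12), and Sftpd, a surfactant collectin, to 0.14. Scgb3a2, a club cell secretory protein, rose by 0.35 ± 0.07 (adjusted p = 0.0011), with all sidestream arrays above all air arrays, and by 0.25 without the pair. Of 21 endothelial markers, the transcription factor Sox17 rose by 0.46 and the lymphatic receptor Lyve1 fell by 0.45. Without the pair 1 rose and 5 fell (3.16% and 3.35% of all genes did). Lyve1 lost its call without any of 8 single arrays (adjusted p of 0.051 to 0.082). Of 18 lipid and lysosome genes of macrophages, Ctsk and Npc2 rose by 0.45 and 0.27 and Fabp5 fell by 0.39. Ctsk, the protease cathepsin K, was still called without the pair, whereas Npc2 and Fabp5 were not (adjusted p = 0.085 and 0.19). Fabp5, a fatty acid binding protein, was at 14.14 on DIO-SC-3 and differed by -0.20 without it (adjusted p = 0.056). It also lost its call without DIO-SC-7 or any single sidestream array (adjusted p of 0.058 to 0.088). Interferon response genes, p53 targets, resident alveolar macrophage markers and NK cell markers had 0 calls among 17, 15, 13 and 9 members by limma with all arrays. Their medians were 0.11, -0.04, 0.07 and -0.16. With 6.85% of all genes called, few calls would be reached in lists this short at that share.

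Some of the largest falls belonged to the 2 air arrays. Ada, adenosine deaminase, was at 5.72 to 6.13 in sidestream smoke, at 12.94 on DIO-SC-3, at 9.19 on DIO-SC-7 and at 6.14 to 6.97 on the other 6 air arrays. All air arrays were above all sidestream arrays, but the fall of -1.68 ± 0.48 with all arrays (adjusted p = 0.025) was -0.51 without the pair (adjusted p = 0.018), -0.91 without DIO-SC-3 and -1.44 without DIO-SC-7 (adjusted p = 0.063). Egln3, a hypoxia-induced prolyl hydroxylase, was at 5.85 to 6.25 in sidestream smoke and at 9.78, 8.29 and 6.28 to 7.04 on DIO-SC-3, DIO-SC-7 and the other 6, and its fall of -1.20 ± 0.25 became -0.61 (adjusted p = 4.6e-04). Its difference between diets went from -1.46 to -0.88 without the pair (adjusted p = 0.0013). In limma's fit of only the 16 compared arrays, Ada and Egln3 were not called (adjusted p = 0.25 and 0.098). Dgat2, a triglyceride synthesis enzyme of fat, was at 8.19 to 8.96 in sidestream smoke and at 11.17, 12.44 and 8.69 to 9.42 in air. Its difference of -1.26 became -0.58 and did not pass (adjusted p = 0.26). Rgs5, a pericyte regulator of G protein signalling, went from -1.12 to -0.42 (adjusted p = 0.35), with 10.49 and 11.27 on the 2 arrays and 7.61 to 8.44 on the other 6. Dgat2 and Rgs5 also lost their calls without either of the 2 arrays alone and without any of 3 and 5 single sidestream arrays respectively (adjusted p of 0.051 to 0.12).

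The 10 genes whose difference moved most when the 2 arrays were left out were Ucp1, Cidea, Krtdap, Pck1, Ada, Mt4, Tnnc2, Rag1, Lce1d and Myh8, and Ada was the 1 of them that was called. The muscle gene Tnnc2 was at 13.87 on DIO-SC-3 and at most 5.54 on the other air arrays, the squamous gene Krtdap at 13.50 there, the lymphocyte recombinase Rag1 at 12.37 on DIO-SC-7, and Ucp1, the brown fat uncoupling protein, at 11.09 and 13.18 on the pair and at most 5.14 on the other 6 air arrays. With all arrays the difference was -1.36 for Tnnc2, -1.61 for Krtdap, -1.18 for Rag1 and -1.73 for Ucp1, none of which passed (adjusted p of 0.10 to 0.26). Which other genes those tissues contribute to, and how much, was not tested.

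Cell division genes were called when DIO-SC-7 was left out. With all arrays, 0 of 27 were called by limma (6.85% of all genes were) and the median was 0.02. Without DIO-SC-3 and DIO-SC-7, 9 rose (3.16% of all genes did) and 0 fell, with a median of 0.40. Without DIO-SC-7 alone, where 874 of 12393 genes were called, 10 of the 27 were. Their mean log2 signal was 9.44 on DIO-SC-7 and 6.56 to 6.82 on the other 7 air arrays, against 6.86 to 7.33 in sidestream smoke, so that every sidestream array was above those 7. Cdk1, the mitotic kinase, differed by 0.43 (adjusted p = 0.38) with all arrays and by 0.91 (adjusted p = 0.0011) without the pair, and Top2a, a replication topoisomerase, by 0.15 and 0.74 (adjusted p = 0.014). Mki67, the proliferation marker, did not pass in either (adjusted p = 0.93 and 0.094). T cell markers, at a mean of 10.75 on DIO-SC-7 and 6.88 to 7.40 on the other air arrays, had a median of -0.41 with all arrays and 0.07 without the pair, with 0 of 15 called both ways.

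B cell markers moved differently on the 2 diets. In obese mice 2 of 11 rose (4.26% of all genes did), and the median was 0.25. They were the IgE receptor Fcer2a (0.55 ± 0.15, adjusted p = 0.020) and the inhibitory receptor Cd22 (0.30 ± 0.09, adjusted p = 0.030). Neither was called without DIO-SC-3 and DIO-SC-7 (adjusted p = 0.067 and 0.084) or without DIO-SC-2 (adjusted p = 0.060 and 0.096), and Cd22 also lost its call without DIO-SS-1, DIO-SS-3, DIO-SS-5 or DIO-SS-8 (adjusted p of 0.052 to 0.061). In regular weight mice 9 of 11 fell (1.48% of all genes did; median -0.55). The difference between diets was called for 8 of 11, all positive (0.395% of all genes), including Fcer2a (1.17 ± 0.21, adjusted p = 0.0018) and Cd79b of the B cell receptor (0.81 ± 0.17, adjusted p = 0.0076), and for both also without the 2 arrays (adjusted p = 0.0048 and 0.021). The mean of the list was 8.56 ± 0.19 (SD, n = 8) in regular weight air, 8.07 ± 0.14 in regular weight sidestream smoke, 7.81 ± 0.23 in obese air and 8.03 ± 0.16 in obese sidestream smoke. Among 13 genes of antigen presentation and dendritic cells, H2-Aa and H2-Eb1, which encode antigen-presenting chains, rose by 0.21 and 0.26 in obese mice (4.26% of all genes rose). H2-Aa lost its call without DIO-SC-3 (adjusted p = 0.062), and H2-Eb1 without any of 11 single arrays (adjusted p of 0.051 to 0.084) and without DIO-SC-3 and DIO-SC-7 together (adjusted p = 0.057). Without the pair 1 member rose and 2 fell (3.16% and 3.35% of all genes did). The falls were 0.26 for Cd209a and 0.32 for Zbtb46 (adjusted p = 0.042 and 0.037).

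Across all genes the responses on the 2 diets, which share no arrays, were compared directly. Sidestream smoke changed 269 genes in regular weight mice (2.17%), 86 higher (0.694%) and 183 lower. Array RW-SS-6 had means of 10.77 for brown fat and 11.48 for white fat markers, against 7.03 and 8.40 at most in regular weight air. It was left out only as 1 of 5 arrays, so its own part in the comparison of diets was not tested. Both responses were called for 73 genes, 8.6% of the obese and 27.1% of the regular weight calls, and 68 of them moved in the same direction. Of the 849 genes called in obese mice, 669 (78.8%) had the same sign in regular weight mice, against 59.5% of genes not called. The difference between the responses was called for 81 genes (0.654%), 49 of them positive and 32 negative. In 66 of the 81 the responses had opposite signs. The 81 were picked for a difference between these same responses, which favours opposite signs, so that count is a description only. Of the 81, 62 were called without DIO-SC-3 and DIO-SC-7 as well. The number called was 106 without DIO-SC-3 and DIO-SC-7 and 138 without DIO-SC-7 alone. It was 155 without the 5 arrays DIO-SC-3, DIO-SC-7, RW-SS-6, DIO-MS-1 and DIO-MS-6. The correlation of the 2 responses across all genes was 0.19 with all arrays and 0.46 without these 5.

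Obese sidestream smoke was also compared directly with obese mainstream smoke, a difference into which no air array enters, although all arrays share the estimate of spread. It called 2086 genes (16.8%), 992 higher in sidestream smoke (8.0%) and 1094 lower (8.83%). DIO-MS-1 and DIO-MS-6 stood apart in the mainstream group, with mean correlations of 0.974 and 0.977 to the other arrays and array weights of 0.237 and 0.255. The number called was 1482 without these, DIO-SC-3, DIO-SC-7 and RW-SS-6. With only DIO-SC-3 and DIO-SC-7 left out it was 2747. Inflammatory genes were lower in sidestream smoke: 23 of 28 chemokines and cytokines were (median -1.53), and 14 of 16 acute phase genes (median -1.37). Saa3 was at 14.18 to 14.71 in mainstream smoke, above all sidestream arrays, a difference of -5.83 ± 0.25 (adjusted p = 3.2e-23). Cxcl1 differed by -4.27, Cxcl5 by -4.15, Mmp12, macrophage elastase, by -4.08, Ly6i by -3.97, Ccl3 by -3.27, Orm1 by -3.20 and Cxcl2 by -3.17, and these with Saa3 were the 8 largest differences. Some of these spread widely in mainstream smoke: Cxcl2 was at 6.04 to 9.77 there (SD 1.44), above all sidestream arrays. Slc26a4, which rose in sidestream smoke, was lower than in mainstream smoke (difference -2.96 ± 0.20). By contrast Edn1 and Aspn were higher in sidestream than in mainstream smoke, by 0.73 ± 0.16 (adjusted p = 7.4e-04) and 1.05 ± 0.17 (adjusted p = 6.5e-06). Cyp1a1 was at 7.10 to 9.04 in mainstream smoke, overlapping the sidestream arrays, with a difference of -0.31 ± 0.21 (adjusted p = 0.34). Hspa1a, Hspa1b and Zbtb16 differed by -0.04, -0.33 and -0.11 (adjusted p = 0.92, 0.38 and 0.83), which does not show equal levels. Other members of their lists did differ. Of 21 heat shock genes 6 were lower and 1 higher in sidestream smoke. These counts were 3 and 0 for 12 Dbp-phase clock genes and 4 and 4 for 18 glucocorticoid targets. Hsph1 differed by -0.35, Dbp by -0.85, Nr1d1 by -0.48, Fkbp5 by -0.62 and Klf15 by 0.45 (adjusted p of 9.9e-05 to 0.045). Acaa1b and Fabp1, of fatty acid oxidation and transport, were 3.12 and 2.47 higher in sidestream smoke, while neither passed against air (0.12 and -0.31).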

How the data were processed

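Lung RNA was labelled from oligo-dT primers and hybridised to Affymetrix mouse arrays, 1 array per mouse. The authors summarised probes with RMA, per the submitters' processing notes, and deposited the result on a log2 scale; the RMA version was not given in the sources used here. RMA quantile-normalizes arrays together and gives no detection calls, so low signals have no floor. Of 22690 probe sets, 64 were controls, 20393 had 1 gene symbol, 691 several and 1606 none. Each of 12393 genes was read from 1 probe set, that of highest average signal across all 48 arrays. Group means over all 48 arrays were fitted with limma 3.58.1 in R 4.3.3 with empirical Bayes, so all groups share 1 estimate of spread. Adjusted p-values are limma's with Benjamini-Hochberg adjustment over all 12393 genes, called below 0.05. Errors are model SEs unless given as SD. The fit was tested on simulated data with the same spread in all groups and no arrays standing apart. That test does not cover the unequal spread seen here.

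The named genes were the 15 largest rises and falls, up to 4 called members of each list, a fixed set, the 8 largest differences between diets and from mainstream smoke, and the 10 genes most moved by DIO-SC-3 and DIO-SC-7. Other list members are given with their list. Members and lists were chosen with earlier results of these data known. The labels used here give no scan date, slide or batch. Promoters are RefSeq windows of GRCm38.p6. Same-numbered arrays did not deviate together (correlations of -0.139 to 0.155), so no block was used. The number of arrays limits the precision.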

Additional observations from a re-analysis of the deposited data

Results flagged for a closer look

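Among 212 groups of 8 arrays examined for a single array far from its neighbours, 32 had one. Of these, 8 were in the 10 genes chosen because DIO-SC-3 and DIO-SC-7 moved them most, which says nothing of chance. Among the 192 groups of the other named genes 24 had one, where chance flags about 1 in 20, and these genes too were chosen with values of these arrays known. Log2 signals on DIO-SC-3 that stood apart were 12.94 for Ada, 14.14 for Fabp5, 13.50 for Krtdap, 12.73 for Mt4, 13.87 for Tnnc2, 12.02 for Myh8 and 12.07 for Lce1d. Log2 signals on DIO-SC-7 that stood apart were 11.05 for Fkbp5, 8.41 for Cyp1b1, 8.34 for Gstt3, 9.63 for Lcn2, 8.29 for Arntl, 11.08 for Ier3, 11.74 for Herpud1, 12.15 for Hspa5, 13.24 for Sftpd, 9.46 for Sox17, 10.53 for Pdgfra, 8.84 for Cd55, 8.95 for Acaa1b, 14.97 for Sftpc, 8.66 for Orm1 and 12.37 for Rag1. Log2 signals on DIO-SS-1 that stood apart were 10.69 for Hsph1, 12.45 for Hspa5 and 4.43 for Rag1. On DIO-SS-5 the log2 signal of Cd55 stood apart at 9.86. Log2 signals on DIO-SS-6 that stood apart were 8.21 for Nr1d1, 8.93 for Hspa1a, 6.21 for Gstm7 and 12.08 for Herpud1. On DIO-SS-7 the log2 signal of Saa3 stood apart at 10.24. DIO-SC-7 held 16 of these values and DIO-SC-3 held 7.

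The response to sidestream smoke differed between obese and regular weight mice, by limma's test of the difference itself, by 3.84 for Cyp1a1, 1.10 for Retnla, 1.09 for Edn1, 0.71 for Cp, -2.70 for Zbtb16, -2.39 for Hspa1b, 1.0 for Nr1d1, -1.85 for Hspa1a, 1.31 for Dbp, -1.49 for Fkbp5, -1.46 for Egln3, -0.75 for Hsph1, -1.03 for Map3k6, -1.07 for Klf15, 1.17 for Fcer2a, 0.65 for Cd22, 0.59 for Nr1d2, -0.77 for Dnaja1 and 0.81 for Cd79b (log2, obese minus regular weight). All of these but Cp (0.53, adjusted p = 0.075) were also called without DIO-SC-3 and DIO-SC-7. The difference of Egln3 was -0.88 without them and -0.76 without the 5 arrays DIO-SC-3, DIO-SC-7, RW-SS-6, DIO-MS-1 and DIO-MS-6.

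Among 2246 probe sets with several symbols or none, which enter no gene list, 53 were called (2.36%), 31 higher and 22 lower. The largest falls were -2.48 ± 0.30 for probe set 1442025_a_at (adjusted p = 1.5e-07) and -1.99 ± 0.27 for 1442026_at (adjusted p = 1.0e-06), by limma.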

How the results depend on the processing

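The count of 849 called genes (528 higher, 321 lower) was 380 (239 and 141) in a fit of the 16 obese arrays alone, 1295 with array weights (581 lower), 337 (215 and 122) at an adjusted p below 0.01 and 57 (27 and 30) with at least 1.5-fold change. The lower count was 567 without the 5 arrays DIO-SC-3, DIO-SC-7, RW-SS-6, DIO-MS-1 and DIO-MS-6 and 581 in a fit of only 14 arrays, an alternative chosen after the data were seen. The 81 differences between diets were 155 without the 5 arrays, 136 with array weights, 37 at 0.01 and 51 with at least 1.5-fold change. The 2086 genes that differed from mainstream smoke were 1174 and 424 under the last 2 thresholds. Leaving out 1 array at a time gave 654 to 1079 called genes, 405 to 658 higher, 240 to 421 lower, 68 to 138 differences between diets and 1776 to 2573 differences from mainstream smoke. With the replicate number as a block 822 genes were called, and among the named genes Gstm6 and Fabp5 lost their calls; pairing by number was not shown. Of the 76 named genes called, 40 kept their call under every alternative run and none changed direction. In the fit of the 16 obese arrays alone, 27 of the 76 lost their call, among them Egln3, Ada, Arntl and Saa3. Over all genes, the probe set with the largest interquartile range called 718, of which 625 were shared and 624 in the same direction, and 36 of the 849 had the opposite sign. Apart from the stricter thresholds, why these counts changed was not tested. RMA signals near the low end have no detection call, so small differences there are uncertain.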
